A study of Mus musculus with 25 samples.

Results

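The fibrillar collagens of types I, III and V are the 6 mouse genes Col1a1, Col1a2, Col3a1, Col5a1, Col5a2 and Col5a3, taken from the expression tables by their Ensembl gene identifiers. They are 6 of the 14405 genes measured in all: the skin table of 12661 genes held all 6, and the lung table of 11867 genes held 5, so that Col5a3 in lung was not analysed here. RNA was measured by sequencing in fibroblasts and macrophages sorted from lung and skin of C57BL/6 mice. Neutrophil-depleted mice carried Mrp8_CRE with Rosa26_DTR, an allele that puts the diphtheria toxin receptor on cells in which the Cre recombinase has acted. Control mice carried Mrp8_WT with the same Rosa26_DTR allele, and mice of both genotypes received 10 ug/kg of diphtheria toxin into the peritoneum for 7 days. The control animals therefore share the receptor allele and the toxin with the depleted ones. The Mrp8 promoter is active mainly in neutrophils and also in a part of the monocytes, so the toxin is not limited to neutrophils by design. Each lung group held 3 libraries, skin fibroblasts had 3 depleted and 3 control libraries, and skin macrophages had 4 depleted and 3 control libraries, 2 of which were kept apart as described below. Lung fibroblasts were sorted as PDGFRA-positive cells without CD45, CD31 and EPCAM, and skin fibroblasts were positive for CD90.1 as well. Lung interstitial macrophages and skin macrophages were sorted on CD45, CD68, F4/80 and CD11b. The labels give no age or sex and do not say whether the numbered libraries came from separate animals, so the p-values speak only of the spread among libraries, which may be technical.

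Fibrillar collagens assemble outside the cell into the rope-like fibrils that give skin and lung their tensile strength. Type I collagen is built from α1 chains (Col1a1) and an α2 chain (Col1a2), type III collagen from α1 chains alone (Col3a1), and type V collagen from combinations of Col5a1, Col5a2 and Col5a3 chains that start fibrils and limit their thickness. Fibroblasts are the main source of these chains in both organs, and TGF-beta is a well known inducer of their transcription.

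In the GENCODE M21 annotation of GRCm38, Col1a1 lies on chromosome 11 (94936224 to 94953042, plus strand) and Col1a2 on chromosome 6 (4504814 to 4541544, plus strand). Col3a1 (45311538 to 45349706, plus strand) and Col5a2 (45374321 to 45503282, minus strand) are neighbours on chromosome 1. Col5a1 lies on chromosome 2 (27886425 to 28039514, plus strand) and Col5a3 on chromosome 9 (20770050 to 20815067, minus strand). The principal coding transcript by the annotation's APPRIS tag, the longest where several carried it, had 51 to 67 exons in the 6 genes. It spans 5348 nt (Col1a2) to 8406 nt (Col5a1), and its length was used for levels per kilobase. In that annotation 5 of the 6 genes overlap a short or non-coding gene, Col1a1 being the exception, and the files do not say whether strand was used in counting. The 250 bases before the RefSeq start (GRCm38.p6) were at hand for Col1a2, Col3a1, Col5a1 and Col5a3, and are shown because Col1a2, Col3a1 and Col5a1 varied together over the skin fibroblast libraries while Col5a3 did not. Capitals mark matches on either strand to the TATA box motif TATAAA, to the CCAAT box and to the GC box motif GGGCGG, which share no position with one another in these windows. The Col1a2 window lies inside the gene by its GENCODE start of 4504814, so its motif distances hold for the RefSeq start only. Col1a2 is at chr6:4505368-4505617 and Col3a1 at chr1:45311288-45311537, both on the plus strand. Col5a1 is at chr2:27886175-27886424 on the plus strand, and Col5a3 at chr9:20815068-20815317 on the minus strand. Each is written 5′ to 3′.
Col1a2: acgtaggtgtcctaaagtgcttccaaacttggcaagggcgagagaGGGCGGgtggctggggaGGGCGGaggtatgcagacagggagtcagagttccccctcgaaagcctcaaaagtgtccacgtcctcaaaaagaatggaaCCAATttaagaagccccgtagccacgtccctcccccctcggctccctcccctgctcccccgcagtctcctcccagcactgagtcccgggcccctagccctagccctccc
Col3a1: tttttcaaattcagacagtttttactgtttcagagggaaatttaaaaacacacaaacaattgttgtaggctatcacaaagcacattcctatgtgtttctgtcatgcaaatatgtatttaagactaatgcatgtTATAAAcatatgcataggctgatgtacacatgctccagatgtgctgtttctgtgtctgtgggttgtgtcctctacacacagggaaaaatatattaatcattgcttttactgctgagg
Col5a1: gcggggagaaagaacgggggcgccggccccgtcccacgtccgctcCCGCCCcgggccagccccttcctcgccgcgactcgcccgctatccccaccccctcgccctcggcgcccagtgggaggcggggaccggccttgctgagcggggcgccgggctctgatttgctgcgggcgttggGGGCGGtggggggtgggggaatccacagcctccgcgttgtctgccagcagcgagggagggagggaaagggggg
Col5a3: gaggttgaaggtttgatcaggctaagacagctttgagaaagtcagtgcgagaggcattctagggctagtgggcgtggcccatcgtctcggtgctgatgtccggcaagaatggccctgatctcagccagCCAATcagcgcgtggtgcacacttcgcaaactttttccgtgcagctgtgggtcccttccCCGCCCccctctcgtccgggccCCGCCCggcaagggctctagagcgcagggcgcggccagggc
Col1a2 and Col5a3 each held 1 CCAAT, 109 and 122 bases before the start, and 2 GGGCGG; Col5a1 held 2 GGGCGG, and Col3a1 held 1 TATAAA, 117 bases before the start, with no match to the other motifs. Of 32851 RefSeq promoters of this length, 12.37% held TATAAA, 33.85% CCAAT and 32.74% GGGCGG. The GC content was 35.2% for Col3a1, 62% for Col1a2, 62.8% for Col5a3 and 76.4% for Col5a1, against a median of 52.4% over all promoters.

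Values are the authors' normalised signal, in which a gene without reads sits at the minimum of its library. The lung libraries held 124075 to 385925 estimated reads and the skin libraries 6553115 to 27259903, so 1 read was worth 3 to 6.81 signal units in lung and 0.0371 to 0.162 in skin. Lung values near those of 1 read carry little precision. The 2 tables were normalised separately, and levels were compared only within an organ. In lung, the 16 fibroblast marker genes held 1.95 to 2.41% of the signal in control fibroblasts and 0.0328 to 0.0385% in control macrophages. Ptprc (CD45) held 1 read and Epcam 0 reads over the control lung fibroblast libraries. Pecam1 (CD31), which the gate excludes, did not follow it. It read 205 ± 60.3 in control and 201 ± 31.2 in depleted lung fibroblasts, and 210 ± 100 in control lung macrophages (SD, n = 3 each). The source of this signal was not tested. Of the labelled control skin macrophages, libraries 1 and 5 went against their label. The 16 macrophage markers held 0.00536 and 0.00541% of their signal, against 3.32% in control library 3, and their fibroblast markers held 5.55 and 5.61%. Their collagen signal was that of fibroblasts: Col1a1 read 15309 and 28883, Col1a2 17629.8 and 17802, Col3a1 12362 and 21486, Col5a1 411 and 455, Col5a2 647 and 983 and Col5a3 24.6 and 93.6. Both libraries were kept apart from every comparison unless stated, and the title of library 5 itself speaks of fibroblasts. Among the skin fibroblasts, control library 3 and depleted library 4 stood apart from the rest, with a highest correlation of log2 values to any other skin library of 0.787 and 0.774, against at least 0.903 for the other 4. As a check of depletion, S100a8, the neutrophil gene that encodes Mrp8, read 6517 ± 3653 (SD, n = 3) in control and 1041 ± 140.2 (SD, n = 3) in depleted lung macrophage libraries. In skin macrophages it read 36.4 in control library 3 and 10.1 ± 3.22 (SD, n = 4) in depleted libraries. The 6 neutrophil markers of the skin table together did not follow it there. They held 0.0110% of the signal in control library 3 and 0.0202, 0.00787, 0.00416 and 0.0155% in depleted libraries 1, 2, 3 and 5. In skin fibroblasts S100a8 went the other way, with 0.0339 to 0.936 in control and 0.0290 to 26.01 in depleted libraries, ranges that overlapped.

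**Figure D1:**
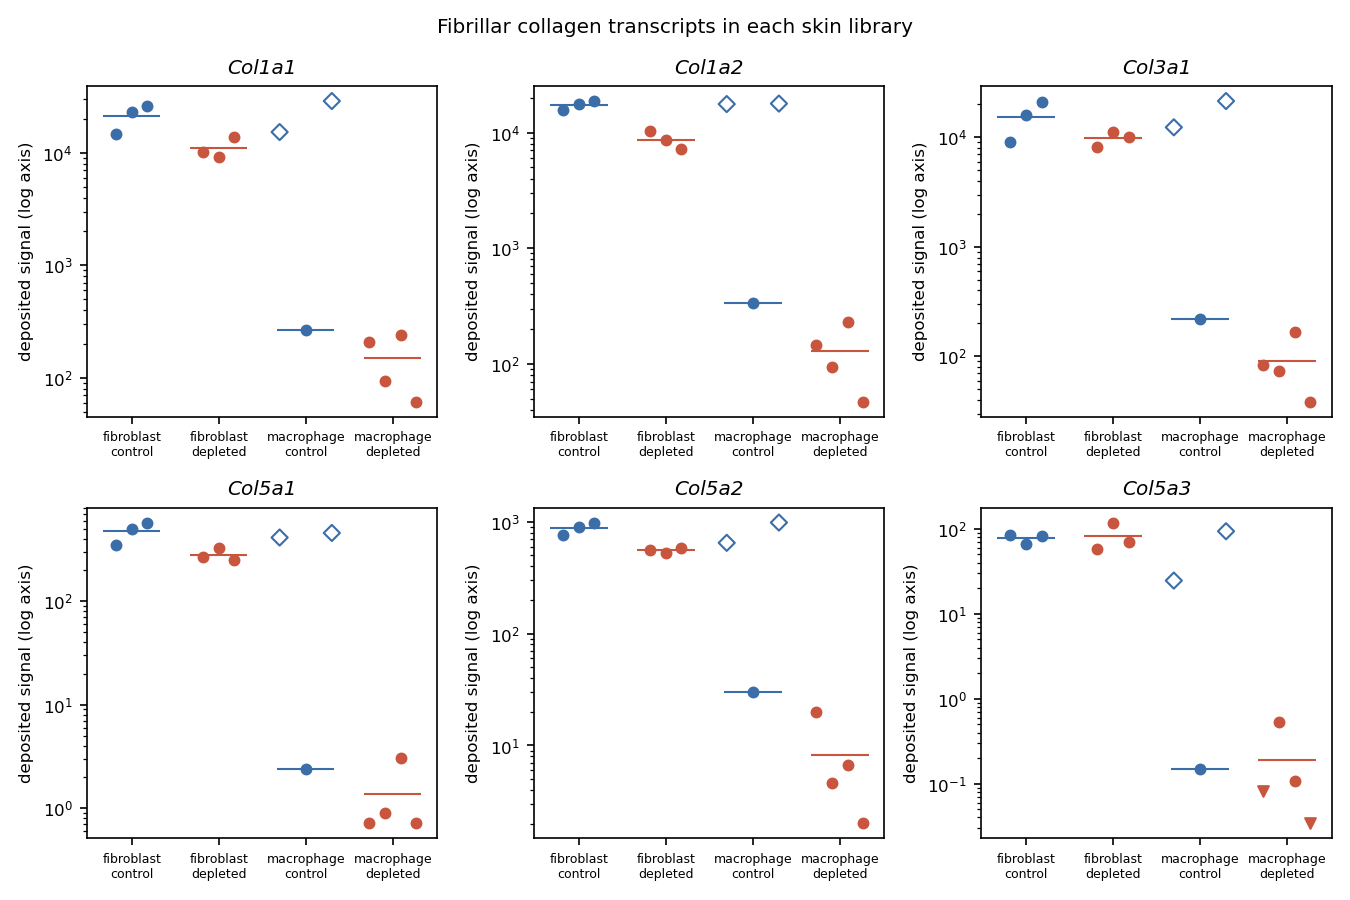
Deposited signal (vertical log axis) of the 6 collagen genes in each skin library, by cell type and genotype. Filled points are libraries, horizontal lines group means, triangles libraries with 0 reads, and open diamonds the 2 libraries labelled control macrophages that have a fibroblast profile, which the means leave out. Depleted fibroblasts lie below all control fibroblasts for Col1a1, Col1a2, Col5a1 and Col5a2, and the open diamonds lie near the fibroblasts in every panel except that 1 of them is lower for Col5a3.

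In both organs the type I and III genes were far higher in fibroblasts than in macrophages, as were the type V genes in skin, while the type V genes of lung rested on few reads. Per kilobase of transcript, the level in control skin fibroblasts was 2481 to 4438 for Col1a1, 2957 to 3501 for Col1a2 and 1632 to 3788 for Col3a1, and these 3 ranges overlapped. Col5a2 followed at 116 to 147, then Col5a1 at 41.5 to 68.3 and Col5a3 at 10.8 to 13.7, with no overlap between neighbours in this order. In control lung fibroblasts, the level per kilobase was 124 to 215 for Col3a1 and 137 to 173 for Col1a2, which overlapped, and 36.5 to 59.4 for Col1a1, which was lower in each library. The type V chains of lung held 10 reads for Col5a1 and 8 for Col5a2 over the 3 control fibroblast libraries.

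Against macrophages of the same organ and genotype, limma's moderated test with Benjamini-Hochberg adjustment over all genes called 4 of 5 collagen genes higher in control lung fibroblasts, where 11% of the 11867 genes were called higher. By fitted log2 fold change, Col3a1 of type III stood highest, at 6.33 with an SE of 0.39 (limma adjusted p = 6.8e-11). Col1a2 followed at 5.67 ± 0.35 and Col1a1 at 4.56 ± 0.44. These folds rested on 7, 10.94 and 7.06 macrophage reads, in that order. The 95% counting intervals of the ratios of read shares were 58.5 to 303, 40.4 to 147 and 16.8 to 89.2, and overlapped. Col5a1 and Col5a2 had 0 reads in all 6 lung macrophage libraries, which allows up to 0.000371% of the control reads, and were at least 4.90-fold and 3.92-fold higher in control fibroblasts, taking 3 reads over the macrophage group as the floor. With the counting error of the fibroblast reads, the lower 95% limits of these ratios were 3.30 and 2.51. Col5a1 overlapped between the cell types, since control fibroblast library 2 had 0 reads, and missed the threshold (adjusted p = 0.0691), and the number called ran from 3 to 5 over the alternatives. In depleted lung, 5 of 5 collagen genes were called higher in fibroblasts, with 10.6% of all genes called higher. Col5a1 and Col5a2 again stood against 0 macrophage reads. The lung calls of Col5a2 in both genotypes and of Col5a1 in depleted mice set few fibroblast reads against library minima, and are no support. Col3a1 differed by 7.01 ± 0.41 on the log2 scale, with 1 read over the depleted macrophage libraries. Its ratio of read shares was 476 (95% counting interval 85.0 to 18836). Over the alternatives its log2 fold change ran from 6.34 to 7.43. In depleted skin 6 of 6 were called higher, beside 12.7% of 12079 genes, with log2 fold changes of 6.38 for Col1a1, 6.27 for Col1a2, 6.92 for Col3a1 and 6.27 for Col5a2. Col5a3, with 9 reads over the 4 macrophage libraries, and Col5a1, with 71, passed the filter on low values through the fibroblasts, where they are high, so their calls are no support. Their fitted log2 fold changes depend on the pseudocount, from 4.30 to 7.61 for Col5a3 and 5.74 to 7.65 for Col5a1 between 4 and 0.25 ppm, and the ratio of read shares was 599.9 (95% counting interval 316 to 1313) for Col5a3 and 255 (202 to 327) for Col5a1. Genes that act on the same fibrils followed the cell types in part. Of 19 genes for procollagen folding and modification in the lung table, 11 were higher and none lower in control lung fibroblasts, among them Serpinh1, the collagen chaperone HSP47 (log2 6.79), and Sparc, a collagen-binding matricellular protein (log2 5.39). Of 7 genes for propeptide cleavage and crosslinking, 6 were higher and none lower, including Lox, a lysyl oxidase that crosslinks fibrils (log2 6.28), and Pcolce, an enhancer of procollagen C-propeptide cleavage (log2 5.90). Of all genes, 12.2% were called lower in these fibroblasts. Collagen receptors and uptake genes split between the cell types, with 4 of 7 higher in fibroblasts, such as the collagen receptor Ddr2 (log2 4.73), and 2 lower, the mannose receptor Mrc1 (log2 -5.52) and the inhibitory collagen receptor Lair1 (log2 -4.51). In depleted skin, 12 of 12 fibril surface genes tested were higher in fibroblasts, led by the small proteoglycan Lum (log2 6.69) and by Dpt, which binds decorin and collagen (log2 6.39). So were 9 of 10 cleavage and crosslinking genes, among them Adamts2, the procollagen N-propeptidase (log2 6.46). The cleavage and crosslinking list held only 0.00255 to 0.00606% of the depleted skin macrophage signal and 0.00179 to 0.00447% of that in control lung macrophages. Partner genes near the floor in macrophages could pass the filter through the fibroblasts alone, and such calls are no support. Lum, Dpt and Pcolce are also among the fibroblast markers.

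**Figure D2:**
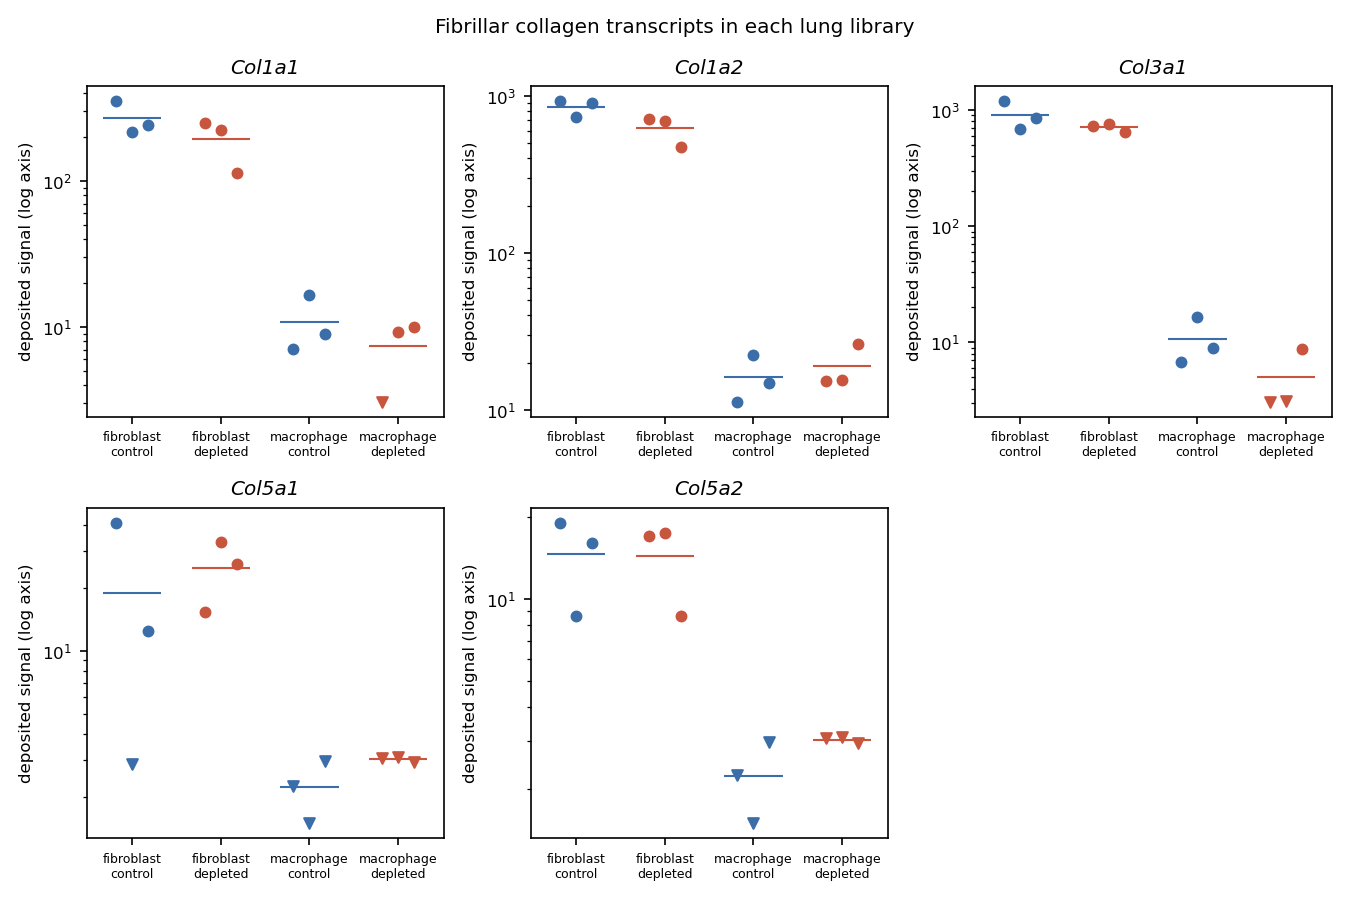
Deposited signal (vertical log axis) of the 5 collagen genes of the lung table in each lung library, by cell type and genotype. Points are libraries, horizontal lines group means and triangles libraries with 0 reads. Type I and III genes lie far higher in fibroblasts than in macrophages, and Col5a1 and Col5a2 sit at 0 reads in every macrophage library.

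In skin fibroblasts, the signal of 4 of the 6 collagen genes was lower in every depleted library than in every control library, and none passed the test. Col1a1, the major type I chain, read 14709.8, 23002 and 26316 in control libraries 3, 4 and 5 and 10202, 9118 and 13949.7 in depleted libraries 2, 4 and 5. Col1a2, its partner chain, read 15814, 17517 and 18725 in control and 10218, 8581 and 7274 in depleted libraries. The highest depleted library stayed below the lowest control library for both chains of type I. The log2 fold change, on the scale of log2 of the signal plus 1 ppm of the mean library total, was -0.93 ± 0.53 (SE, 95% interval -2.09 to 0.23) for Col1a1 and -1.01 ± 0.47 (-2.05 to 0.030) for Col1a2. In sorted bulk libraries, fewer cells that make a transcript and less of it per cell cannot be told apart. Col5a1 read 349, 498 and 574 in control and 265, 326 and 248 in depleted libraries, a log2 fold change of -0.74 ± 0.28 (-1.35 to -0.13, unadjusted p = 0.0217 in limma). Col5a2 read 766, 893 and 975 in control and 563, 522 and 583 in depleted libraries, a log2 fold change of -0.65 ± 0.25 (-1.20 to -0.10, unadjusted p = 0.0244 in limma). Both common type V chains thus lay below the control range, with intervals that did not reach 0 before adjustment. Col3a1 read 9081, 16139 and 21074 in control and 8124, 11243 and 10042 in depleted libraries. Control library 3 lay within the depleted range of Col3a1, and its log2 fold change was -0.58 ± 0.51 (-1.71 to 0.54), and 0.0045 after quantile normalisation.

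Over all 6 skin fibroblast libraries, the minor type V chain Col5a3 did not share the lower values of the other collagen genes. It read 83.7, 66.1 and 82.6 in control and 57.7, 118 and 70.1 in depleted skin fibroblasts, groups that overlapped, with depleted library 4 the highest of the 6. Its log2 fold change was 0.024 ± 0.37 (-0.78 to 0.82), with an interval that also held the estimates of Col3a1, Col5a1 and Col5a2. The fold change took either sign, -0.27 to 0.24, as single libraries were left out, and was -0.27 without depleted library 4. Across the 6 skin fibroblast libraries, which share both the genotype groups and the normalisation, the Pearson correlation of log2 values between Col5a3 and the other 5 genes lay between -0.24 and 0.16, against 0.63 to 0.96 among those 5, as a description. These correlations include depleted library 4 and were not computed without it.

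In that comparison limma called 0 of 11780 genes (0%) at an adjusted p below 0.05. At an unadjusted p below 0.05, 118 genes (1%) were lower and 165 (1.4%) higher, and Col5a1 and Col5a2 were among the lower ones. Groups that did not overlap, with depletion lower, were found for 494 genes (4.19%) and for 4 of the 6 collagen genes. The median log2 fold change was -0.69 over the 6 collagen genes and 0.030 over all genes tested. The adjusted p was 0.955 for each of the 5 lower genes and 0.996 for Col5a3. Scaled to the fibroblast marker list instead of the library total, Col1a1 differed by -0.70, Col1a2 by -0.78, Col3a1 by -0.36, Col5a1 by -0.51 and Col5a2 by -0.43 on the log2 scale, while the median of all genes moved to 0.24. That list includes matrix genes such as Dcn, Lum, Dpt and Pcolce, so the scaling is no independent correction for fibroblast content. Without control library 3 the log2 fold changes of these 5 genes were -1.17, -1.07, -0.92, -0.94 and -0.75 in the same order, and without depleted library 4 -0.80, -1.01, -0.69, -0.85 and -0.61. Quantile normalisation gave -0.43 for Col1a1 and -0.55 for Col1a2.

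Keratinocyte transcripts were spread unevenly over these libraries. The 15 keratinocyte and hair follicle markers in the table held 0.145, 1.95 and 1.71% of the signal in depleted fibroblast libraries 2, 4 and 5, and 0.343, 0.475 and 0.456% in control libraries 3, 4 and 5. All 15 were higher on average in the depleted group, with a median log2 fold change of 0.99, none of them was called, and none was at 0 reads in either group. The collagen genes together held 3.23, 3.17 and 3.87% of the signal in the depleted libraries and 4.27, 6.51 and 7.41% in the control libraries. Depleted library 2 thus had the lowest keratinocyte share of the 6 libraries together with a collagen share below every control library. With libraries 4 and 5 left out, the one remaining depleted library differed from the 3 control libraries by -1.02 for Col1a1, -0.76 for Col1a2, -0.84 for Col3a1, -0.80 for Col5a1, -0.63 for Col5a2 and -0.41 for Col5a3 on the log2 scale, a lone library being assumed to vary like the controls. The 5 genes that were lower over all 3 libraries were lower in that library too. This is 1 library, and the part of keratinocyte carry-over in the collagen values was not tested. With the keratinocyte share as a covariate the values were -0.98, -0.93, -0.71, -0.78, -0.65 and -0.13 in the same order. The fibroblast markers themselves held 6.16, 3.89 and 4.74% of the signal in depleted and 5.47, 5.39 and 5.66% in control libraries, and 12 of the 16 were lower on average (median log2 -0.26), led by the gate marker Pdgfra at -0.49 and by Serpinf1 at -0.53. Relative to that list, the collagen signal was 0.525, 0.815 and 0.815 of the marker signal in depleted and 0.780, 1.21 and 1.31 in control libraries, and control library 3 lay below 2 of the depleted libraries. Part of the marker signal is itself that of matrix genes, some of which also sit in the fibril surface and breakdown lists.

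**Figure D3:**
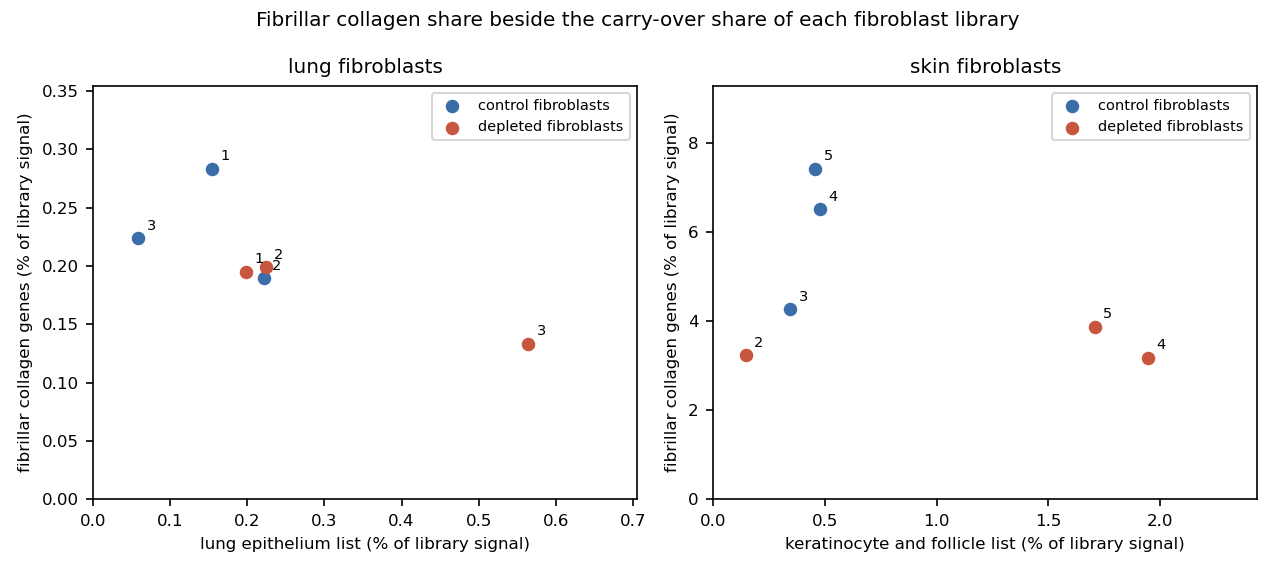
Share of library signal held by the collagen genes (vertical axis, %) against the share held by epithelial markers (horizontal axis, %), for the 6 fibroblast libraries of lung (left, lung epithelium list) and of skin (right, keratinocyte and follicle list). Points are libraries with their number, blue for control and red for depleted. In skin, depleted library 2 is low on both axes, and in lung depleted library 3 has the highest epithelial and the lowest collagen share.

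The genes that fold, cut, crosslink and coat collagen fibrils gave no call in skin fibroblasts either, and their medians are given beside the 0.030 of all genes. Of 13 proteins of the fibril surface, 11 were lower (median log2 -0.46), led by Col12a1, a fibril-associated collagen, at -0.71 and Aebp1, a collagen-binding matrix protein, at -0.60. Of 11 genes for propeptide cleavage and crosslinking, 9 were lower (median -0.41), with the lysyl oxidase genes Loxl2 at -0.68 and Loxl4 at -2.39. Of 17 genes of TGF-beta signalling to collagen, 14 were lower (median -0.48), with Ltbp2, a protein of the latent TGF-beta binding family, at -2.30 and the ligand Tgfb2 at -0.61; these values were 0.028 and 0.090 when depleted libraries 4 and 5 were left out. Of 11 procollagen export genes, 8 were lower (median -0.27), with Creb3l1, a transcription factor of the secretory pathway that acts on type I collagen, at -1.19 and Mia3, which helps load procollagen into transport carriers, at -0.80. The 20 folding and modification genes were split, 11 lower and 9 higher (median -0.038), with the prolyl isomerase Fkbp14 at -1.19 and the prolyl 3-hydroxylation partner Crtap at -0.85. Of 8 receptor and uptake genes 6 were lower (median -0.12), with the integrin chains Itga1 at -1.27 and Itga11 at 0.58. Of 10 genes of collagen breakdown and its inhibitors 8 were lower (median -0.28), with the protease Mmp3 at -0.76 and the inhibitor Timp2 at -0.59, and without depleted libraries 4 and 5 Itga1 went to 0.12 and Timp2 to 0.072. Of 11 markers of activated fibroblasts, 7 were lower (median -0.17), with the matrix proteins Tnc at -0.69 and Postn at -0.90. The adjusted p in limma was 0.955 for each of these named genes except Itga11, at 0.960.

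In lung fibroblasts the type I and III genes were lower on average in depleted mice, none past the test, with overlapping groups for Col1a1 and Col3a1. Col1a2 read 925, 731 and 893 in control libraries 1, 2 and 3 and 714, 691 and 473 in depleted libraries 1, 2 and 3. Every depleted library was below every control library, by a narrow gap, as was so for 4.26% of all genes. Col1a1 read 352, 217 and 241 in control and 247, 224 and 113 in depleted libraries, and Col3a1 read 1196, 689 and 857 in control and 732, 758 and 649 in depleted libraries. Control libraries 2 and 3 lay within the depleted range of Col1a1, and control library 2 within that of Col3a1. The log2 fold change was -0.52 ± 0.28 (SE, 95% interval -1.08 to 0.043) for Col1a1, -0.46 ± 0.24 (-0.93 to 0.018) for Col1a2 and -0.32 ± 0.24 (-0.80 to 0.15) for Col3a1. Col5a1 read 40.9, 2.89 and 12.5 in control and 15.4, 33.0 and 25.9 in depleted libraries, where control library 2 had 0 reads and the groups overlapped throughout. Its log2 fold change of 0.92 ± 0.75 ranged from 0.053 to 1.76 as single libraries were left out, the lowest value being that without control library 2. Col5a2 read 19.1, 8.67 and 16.0 in control and 17.0, 17.5 and 8.63 in depleted libraries, a log2 fold change of -0.015 ± 0.78 that rests on 8 reads a group and was 0.077 after centring on the median gene. The ratio of read shares, depleted to control, had a 95% counting interval of 0.662 to 3.74 for Col5a1 and 0.295 to 2.75 for Col5a2, and both hold 1.

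None of the 5 genes was called in lung fibroblasts (limma, adjusted p from 0.969 to 0.997), where 1 of 11867 genes (0.00843%) was, the club cell gene Scgb1a1 (log2 1.43, adjusted p = 0.00671), which is no fibroblast gene and was not called without depleted library 3 (log2 1.02) or control library 3 (log2 1.27). At an unadjusted p below 0.05, 275 genes (2.32%) were lower and 325 (2.74%) higher, with none of the collagen genes among them. The median log2 fold change was -0.32 over the 5 collagen genes and -0.011 over all genes. The 14 lung epithelium markers held 0.198, 0.224 and 0.564% of the signal in depleted fibroblast libraries 1, 2 and 3 and 0.154, 0.221 and 0.0587% in control libraries, and 10 of 14 were higher in the depleted group (median 0.72). Epcam and Krt8 were at 0 reads in all 3 control libraries, and Cdh1 in all 3 depleted ones. Depleted library 3 had both the highest epithelial share and the lowest collagen share of the 6 libraries, 0.195, 0.199 and 0.133% in depleted against 0.283, 0.190 and 0.224% in control libraries. Without depleted library 3 and control library 3, the library with the lowest epithelial share, Col1a1 differed by -0.23, Col1a2 by -0.23 and Col3a1 by -0.29 on the log2 scale, and with the epithelial share as a covariate by -0.16, -0.18 and -0.21. Relative to the fibroblast markers, which include matrix genes, the collagen signal was 0.0828, 0.0854 and 0.0895 in depleted and 0.118, 0.0878 and 0.114 in control libraries. Among the partner genes, 15 of 19 for folding and modification were lower (median -0.27), with the collagen galactosyltransferase gene Colgalt1 at -2.73 (adjusted p = 0.357) and the prolyl isomerase gene Fkbp10 at -1.39. Of 7 receptor and uptake genes 6 were lower (median -0.49), with the endocytic collagen receptor Mrc2 at -0.91 and Ddr1, a collagen-activated receptor kinase, at -1.23. Of 18 TGF-beta genes 11 were lower (median -0.064), with Ltbp2 at 1.69 and the co-receptor Tgfbr3 at 0.51. Export (5 of 11 lower, median 0.12), crosslinking (4 of 7, median -0.16), fibril surface (6 of 11, median -0.042), breakdown (7 of 12, median -0.063) and activation genes (3 of 8, median 0.13) were split in direction. None of these partner genes was called.

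**Figure D4:**
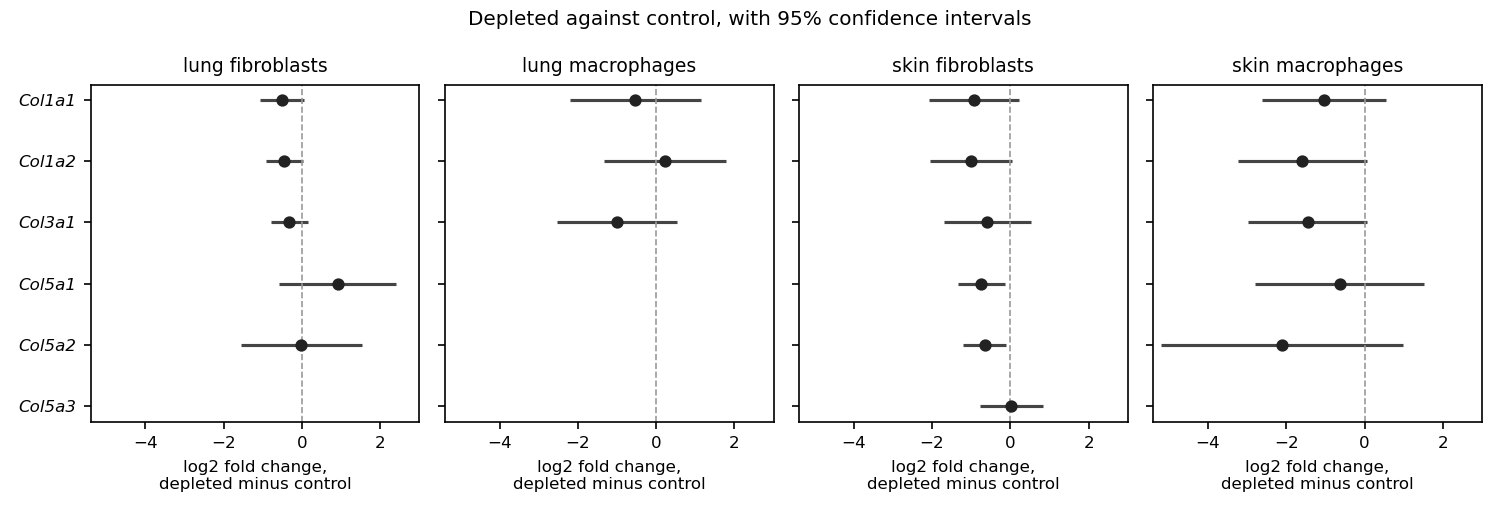
Log2 fold change of each collagen gene, depleted minus control (horizontal axis), in the 4 sorted cell types. Points are limma estimates on log2 of the signal plus 1 ppm, and bars 95% confidence intervals, before adjustment for the number of genes. No estimate is drawn where a gene was filtered out, had 0 reads in both groups or was not in the table. The intervals of Col5a1 and Col5a2 in skin fibroblasts lie below 0 and all others cross it.

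In lung macrophages the collagen genes were at or near the level of single reads. Col1a1 read 7.10, 16.5 and 8.91 in control and 3.08, 9.31 and 9.95 in depleted libraries, a total of 7.06 reads against 2.19. Col1a2 read 11.3, 22.3 and 14.8 in control and 15.4, 15.5 and 26.5 in depleted libraries, 10.94 reads against 8, and Col3a1 6.78, 16.5 and 8.91 and 3.08, 3.10 and 8.83, 7 reads against 1. The groups overlapped for each gene, where 6.02% of all genes were lower without overlap, and limma gave log2 fold changes of -0.53 ± 0.83, 0.24 ± 0.77 and -1.01 ± 0.76, none called beside 59 of 11867 genes (0.497%). Col5a1 and Col5a2 had 0 reads in all 6 libraries, and no fold is given for them. At an unadjusted p below 0.05, 457 genes (3.85%) were lower and 485 (4.09%) higher, with no collagen gene among them. The lung epithelium markers held 0.948, 1.05 and 2.19% of the signal in depleted and 0.909, 0.820 and 0.243% in control macrophage libraries, and the fibroblast markers 0.0360 to 0.0406% and 0.0328 to 0.0385%.

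In skin macrophages 1 control library remained, number 3, and its collagen signal was higher than that of every depleted library for 4 of the 5 genes tested. Col1a1 read 267 there and 208, 93.3, 241 and 61.2 in depleted libraries 1, 2, 3 and 5. Col1a2 read 335 and 146, 94.1, 232 and 47.0, and Col3a1 218 and 83.1, 73.1, 168 and 38.5. Depleted library 5 was the lowest and library 3 the highest of the 4 for all 3 genes. Col5a2 read 29.95 in the control library and 19.8, 4.66, 6.64 and 2.02 in the depleted ones, and Col5a1 2.40 and 0.728, 0.906, 3.09 and 0.718, where depleted library 3 lay above the control. Col5a3, at 2 reads in the control library and 9 over the depleted ones, did not pass the filter on low values. Against a single control library, 25% of all 12028 genes had every depleted library lower, so the 4 collagen genes are to be read against that share. The log2 fold changes were -1.03 for Col1a1, -1.59 for Col1a2, -1.45 for Col3a1, -0.63 for Col5a1 and -2.10 for Col5a2. Their intervals ran from -3.22 to 0.053 for Col1a2 to -5.19 to 0.99 for Col5a2, and limma called 0 of the 12028 genes (0%), with 353 (2.93%) lower and 481 (4%) higher at an unadjusted p below 0.05. Of the fibroblast markers 14 of 16 were lower in depleted libraries as well (median log2 -1.30, all genes -0.10), with Dcn at -2.003 and Lum at -1.48, and they held 0.186% of the signal in control library 3 and 0.147, 0.116, 0.117 and 0.0900% in the depleted libraries. The keratinocyte markers held 0.642% and 0.151% to 0.361%. The part of fibroblast RNA in the macrophage values was not tested. With the 2 libraries of fibroblast profile entered under their macrophage label, the same fit gave -5.23 for Col1a1, -5.4003 for Col1a2 and -5.59 for Col3a1, again with 0 genes called.

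No collagen gene passed limma's interaction test for a different depletion effect in fibroblasts and macrophages. In lung the adjusted p ran from 0.922 to 0.999 over Col1a1, Col1a2 and Col3a1, since Col5a1 and Col5a2 had no macrophage reads to compare, beside 2 of 11867 genes called (0.0169%), with 281 genes (2.37%) lower and 372 (3.13%) higher at an unadjusted p below 0.05. In skin, where the control macrophages were 1 library assumed to vary like the other groups, it ran from 0.964 to 0.988 over the 5 genes other than Col5a3, which had 2 control and 9 depleted macrophage reads, beside 0 of 12661 (0%), with 259 genes (2.05%) lower and 276 (2.18%) higher at an unadjusted p below 0.05. The intervals of these differences were wide, -1.70 to 0.32 for Col1a2 in lung and -0.998 to 2.15 for Col1a2 in skin on the log2 scale.

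The balance between chains within a library differed in level between the organs and overlapped between genotypes. The ratio of Col1a1 to Col1a2, both per kilobase, was 0.285 ± 0.052 (SD, n = 3) in control and 0.273 ± 0.051 (SD, n = 3) in depleted lung fibroblasts, and 1.10 ± 0.23 and 1.20 ± 0.46 in skin. The 6 lung libraries spanned 0.215 to 0.343 and the 6 skin libraries 0.839 to 1.73, ranges that did not overlap. Col3a1 to Col1a1 was 3.60 ± 0.20 in control and 4.30 ± 1.60 in depleted lung fibroblasts, the latter set by depleted library 3 at 6.13, and 0.753 ± 0.098 and 0.977 ± 0.295 in skin. Col3a1 to Col1a2 was alike in both organs, between 0.552 and 1.33 over all 12 fibroblast libraries. Of these 3 ratios, the 2 that hold Col1a1 thus separated the organs and the third did not. The organs were sequenced at different depths and deposited in separate tables, and no test was made between them. In skin fibroblasts Col5a1 stood at 0.0158 ± 0.00083 of Col1a1 in control and 0.0187 ± 0.0063 in depleted libraries, and Col5a2 at 2.40 ± 0.33 and 2.57 ± 0.49 of Col5a1. Relative to Col1a1, Col5a1 spanned 0.0153 to 0.0167 in control and 0.0125 to 0.0252 in depleted libraries, and Col5a2 spanned 0.0332 to 0.0466 and 0.0374 to 0.0513, ranges that overlapped between genotypes.

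**Figure D5:**
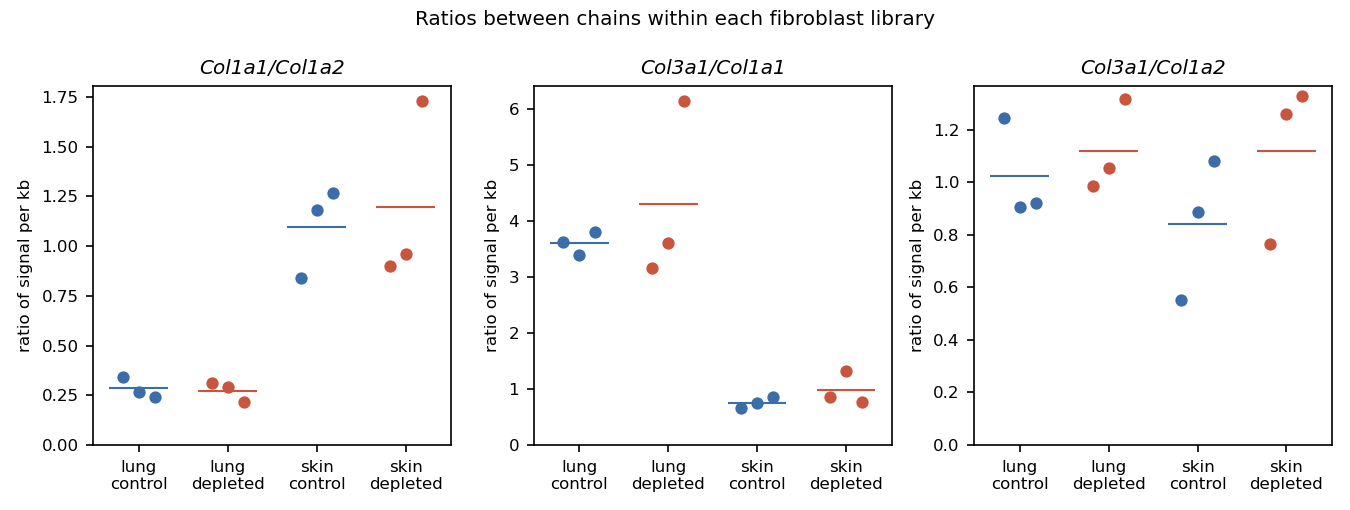
Ratio of signal per kilobase between 2 chains within each fibroblast library (vertical axis), for Col1a1 over Col1a2, Col3a1 over Col1a1 and Col3a1 over Col1a2, by organ and genotype. Points are libraries and lines group means. The ratios that hold Col1a1 lie apart between lung and skin, and control and depleted libraries overlap in each organ for all 3 ratios.

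The genes whose pattern was most like that of the collagens were named by the correlation of log2 values with the mean log2 value of the collagen genes over the 6 fibroblast libraries of an organ, as a description. In skin these were Opcml (r = 0.981), Rdh5 (0.977), Plxna1 (0.969), Chsy1 (0.950) and Ppic (0.950), out of 8152 genes with at least 10 reads in each library. Among the collagen genes themselves, Col5a1 followed that mean most closely (0.983) and Col5a3 least (0.099). In lung, with the mean taken over Col1a1, Col1a2 and Col3a1, they were Igfbp7 (0.957), Sdhd (0.952), Tubb4b (0.949), Gpr157 (0.945) and Adamtsl2 (0.944), out of 1565 genes. Their depletion log2 fold changes ran from -1.35 (Rdh5) to -0.54 (Ppic) in skin and from -0.51 (Gpr157) to -0.27 (Sdhd) in lung, with none called.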

How the data were processed

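Total RNA of sorted cells was made into libraries with a kit for single-cell input and read from one end over 61 nt, per the labels' protocols. The submitters' processing notes name CASAVA 1.8, cutadapt 1.7.1, RSEM 1.7.1, limma 3.46 and mm10, without role or order. The deposited values are a normalised signal per gene, one table for each organ; from the values, each is the sum of the estimated reads and 0.5, multiplied by a constant of its library, and since only 27.4% to 82.2% of values came out as whole reads (within 0.01), no count model was used. Gene symbols and lengths came from GENCODE M21 and promoters from RefSeq.

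Genes of at least 1 ppm of the library total in as many libraries as the smaller group entered limma 3.58.1 under R 4.3.3 (lmFit, then eBayes with trended variance; two-sided tests), with values taken as log2 of signal plus 1 ppm of the mean library total (1.04 in lung, 1.00 in skin). Only the groups compared entered a fit, p-values were adjusted by Benjamini-Hochberg over all genes tested, and an adjusted p below 0.05 was a call. The script was tested on simulated data. Ratios between genes were formed only where both had at least 10 reads. Intervals and floors of reads cover counting error only. The collagen genes were described in every comparison; of each other list described, up to 4 called genes of lowest p, or the 2 of lowest p where none was called, were named; and 5 genes an organ were named as most alike. The members and lists were chosen with earlier results of these data known. Alternatives were other pseudocounts, filters, normalisations and variance settings, each library left out, the replicate number as a block, and, added after seeing the data, carry-over covariates, scaling to fibroblast markers and leaving out libraries of high carry-over.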

Additional observations from a re-analysis of the deposited data

Results flagged for a closer look

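In the 4 depleted skin macrophage libraries, Col5a1 read 0.728, 0.906, 3.09 and 0.718, and library 3 lay far from the rest: its gap to the next library was 0.92 of the whole range, above the critical value of Dixon's test for 4 values. Col5a3 read 0.0809, 0.531, 0.107 and 0.0342 in the same libraries, and library 2, with 8 reads against 0 or 1 in the others, lay 0.854 of the range from the next. Chance gives such a gap in about 1 of 20 groups, 9 sets of values were examined, and groups of 3 were not.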

How the results depend on the processing

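The number of collagen genes called stayed within 1.5 times its value under each of 177 alternatives: 0 in every depletion comparison and difference of effects, 3 to 5 in lung and 6 in skin between the cell types. Of 790 alternative fold changes of collagen genes, 749 kept direction and side of the threshold and 41 turned sign. None of those 41 was called as reported, and the cause was not tested. The 790 leave out Col5a1 and Col5a2 of lung in every comparison but depleted against control fibroblasts. Between the lung cell types the calls of these type V genes did move, which gave the 3 to 5 above. Of the other named genes, 63 values lost a call, 5 gained one and 6 turned sign, with 2750 unchanged in both. Genes called over all ran from 0 to 7 in lung fibroblasts (1 as reported), the most without depleted library 2, and were 16 in skin fibroblasts without depleted library 2 (0 as reported), with no collagen gene called. Col5a2 in lung fibroblasts gave 0.077, 0.028, 0.39, 0.52, 0.061 with centring, array weights, libraries 3 left out, the epithelial covariate and fibroblast scaling, and -0.33 to 0.29 without single libraries. Col1a2 in lung macrophages ranged from -0.0100 to 0.48 without single libraries. In skin fibroblasts Col3a1 gave 0.0045 with quantile normalisation, and Col5a3 gave -0.00298, -0.10, -0.41, -0.13 with centring, array weights, depleted 4 and 5 left out and the keratinocyte covariate, and -0.27 to 0.24 without single libraries. Without depleted 4 and 5, Itga1 gave 0.12, Timp2 0.072, Ltbp2 0.028, Tgfb2 0.090, Krt1 -0.15 and Sfn -0.65. In the difference of effects, Col1a1 in lung gave -0.13 with a pseudocount of 4 ppm and -0.44 to 0.37 without single libraries, and in skin -0.25 to 0.40. Col5a1 in skin gave 0.20, 4.56 with a pseudocount of 0.25 and with all 13 libraries, and -0.31 to 0.19 without single libraries. Col5a3 gave 0.016, 0.013, 0.12, 0.0083, 3.61 with pseudocounts of 0.25 and 4, quantile normalisation, scaling without carry-over genes and all 13 libraries, and -0.30 to 0.21 without single libraries.

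With the replicate number as a block, Col5a1 in skin fibroblasts gave -0.91 (adjusted p = 0.365 in limma), no collagen gene was called in a depletion comparison, and genes called over all rose from 0 to 84 in skin fibroblasts (Ltbp2, Krt1 and Sfn among them, Ltbp2 at -3.12). There depleted library 2 and control library 3 have no same-numbered partner. The blocked skin fibroblast effect thus rests on libraries 4 and 5 of each genotype, the depleted ones being those of high keratinocyte share. Between cell types in depleted lung 4 collagen genes were called against 5. Deviations of same-numbered depleted and control fibroblasts correlated between -0.051 and 0.063. Those of differently numbered ones lay between -0.15 and 0.17. For same-numbered fibroblasts and macrophages of 1 genotype the correlations ran from -0.045 to 0.14, the highest in depleted skin number 5. Such values cannot settle whether same-numbered libraries share an animal or a batch, which the labels do not state. The block in skin macrophages and the fits without control macrophages 3 were not run, since 1 control library was left. In lung fibroblasts the type V chains rest on 8 to 16.76 reads a group.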
